A study of Mus musculus with 8 samples.

Results

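Immediate early genes and heat shock genes were examined in liver of 4 Rap1 -/- mice and 4 wild-type mice, with 1 liver per Agilent array. The set was given as 5 immediate early genes (Fos, Jun, Junb, Egr1 and Ier2) and 5 heat shock genes (Hspa1a, Hspa1b, Dnajb1, Hsph1 and Hspb1). Its members were chosen by name, and a probe belonged to a member when its accession mapped to that symbol. This found 9 of the 10 listed genes, of 19752 symbols on the array, read by 10 of 55681 probes. No probe was assigned to Hspa1b, so it has no value here. All 9 genes and all 10 probes had enough signal to be tested.

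The Rap1 -/- mice lack the telomere protein RAP1, encoded by Terf2ip, in the whole body. They descend from mice with a floxed Rap1 allele crossed to EIIa-cre mice, in which cre acts in the early embryo, and the study's methods state that the cre transgene was later bred out. Both genotypes were 10 weeks old, on a C57BL6/129SV background (90%:10%), and the labels name no treatment. The labels give no sex, feeding state or time of day. The study states that its expression profiles at this age came from females, and it describes fed livers as well as livers taken after a fast.

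Immediate early genes are transcribed within minutes of a stimulus, without the need for new protein synthesis. FOS, JUN and JUNB are subunits of the transcription factor AP-1, EGR1 is a zinc finger transcription factor, and IER2 is a small nuclear protein made early after growth factor stimulation. Serum response factor and CREB are well-known activators of such genes. In liver they respond to partial hepatectomy, injury, feeding and tissue dissociation. Heat shock genes are driven by HSF1, which binds inverted repeats of GAA when unfolded proteins accumulate. HSPA1A and HSPA1B are the inducible HSP70 chaperones, DNAJB1 is an HSP40 that brings substrates to HSP70, HSPH1 (HSP110) exchanges the nucleotide of HSP70, and HSPB1 (HSP27) is a small chaperone that holds unfolded proteins.

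The promoters of members that moved together between mice, and of the AP-1 pair Fos and Jun, are shown so that the letters known for both regulators can be seen. They come from RefSeq (GRCm38.p6), which matched 8 of the 10 listed genes, all but Egr1 and Ier2. Each stretch is 200 bases that end just before the transcription start, read 5′ to 3′ in the direction of the gene, with motif matches in capitals.
Fos, chr12:85473690-85473889 (+ strand): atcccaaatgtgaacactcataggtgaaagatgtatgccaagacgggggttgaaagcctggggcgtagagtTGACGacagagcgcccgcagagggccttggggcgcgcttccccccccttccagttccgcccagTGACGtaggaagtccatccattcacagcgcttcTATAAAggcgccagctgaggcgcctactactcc
Jun, chr4:95052223-95052422 (- strand): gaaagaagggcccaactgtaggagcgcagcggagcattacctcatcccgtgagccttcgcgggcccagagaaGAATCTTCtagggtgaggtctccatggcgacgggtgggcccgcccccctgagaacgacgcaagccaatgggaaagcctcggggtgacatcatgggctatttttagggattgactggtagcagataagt
Hspa1a, chr17:34972157-34972356 (- strand): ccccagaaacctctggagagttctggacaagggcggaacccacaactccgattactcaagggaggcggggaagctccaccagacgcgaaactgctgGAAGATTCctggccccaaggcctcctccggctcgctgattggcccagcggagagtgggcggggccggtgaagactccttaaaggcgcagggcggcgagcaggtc
Dnajb1, chr8:83607975-83608174 (+ strand): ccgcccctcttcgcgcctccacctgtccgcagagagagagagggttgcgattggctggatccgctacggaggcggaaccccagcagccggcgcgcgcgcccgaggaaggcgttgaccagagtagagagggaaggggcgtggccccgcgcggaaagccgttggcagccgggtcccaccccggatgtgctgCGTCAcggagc
Hsph1, chr5:149636337-149636536 (- strand): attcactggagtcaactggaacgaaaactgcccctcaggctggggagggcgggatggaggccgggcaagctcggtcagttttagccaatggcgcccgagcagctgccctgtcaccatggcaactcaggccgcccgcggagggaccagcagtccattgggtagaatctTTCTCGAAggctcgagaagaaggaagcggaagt

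In the Fos stretch the capitals mark TGACG, the core of a cyclic AMP response element, at 129 and 66 bases before the start, and the TATA box TATAAA at 33 bases before it. In Jun they mark GAATCTTC at 128 bases before the start, which has the spelling of 2 inverted heat shock units. Hspa1a held GAAGATTC at 104 bases and Hsph1 held TTCTCGAA at 33 bases before the start. Dnajb1 had no heat shock match and CGTCA, the reverse complement of TGACG, at 11 bases before the start.

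Motifs were searched on both strands from 250 bases before to 50 after the start. The 2-unit heat shock spelling (GAANNTTC or its inverse TTCNNGAA) occurred in 5 of the 8 members with a promoter, namely Jun, Hspa1a, Hspa1b, Hsph1 and Hspb1, and in 15.1% of all 32851 promoters. The longer spelling of 3 alternating units, which contains the 2-unit one, occurred in Hsph1 alone of those 8, and in 0.603% of all promoters. TGACG was found in 4 of the 8 (Fos, Junb, Dnajb1 and Hspb1), against 20.8% of promoters. The complete element TGACGTCA (1.79% of promoters), the AP-1 site TGANTCA (7.81%) and the CArG box of serum response factor (1.63%) were in none of the 8. TATAAA, in 13.6% of promoters, was found in Fos and Junb. These are matches of letters in a window and carry no evidence of binding. An absence covers only these spellings within this window, and sites farther out were not searched. Near spellings, such as tgacatca in the Jun stretch, were not counted. The promoters of Hspa1a and Hspa1b were identical at 296 of 300 bases (98.7%). The genes are near-identical copies, so the Hspa1a probe may read both, and its values are uncertain in that respect.

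Correlations between arrays over 14066 tested genes ran from 0.984 to 0.993, and the share of probes well above background was 50.04% to 65.3%, highest for wild-type replicate 4. The 8 arrays came from 2 slides. Slide 1 held replicates 1 and 2 of both genotypes and slide 2 held replicates 3 and 4, with Rap1 -/- mice in array positions 3 and 4 and wild-type mice in positions 1 and 2. Genotype was therefore balanced over slides, whereas genotype and array position cannot be told apart. A Terf2ip probe, A_52_P381806, read 2.31 to 4.38 intensity units in Rap1 -/- liver and 183 to 245 in wild-type liver, while a second probe, A_55_P2094079, read 232 to 301 in Rap1 -/- liver and 82.2 to 130.1 in wild-type liver. No source used here says which of these probes lies in the deleted part. The hepatocyte markers Alb, Serpina1c and 6 others were above background on all 8 arrays.

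Values below are processed signals in linear intensity units, given for replicates 1 to 4 in order. Comparisons used log2 signals relative to each array's 75th percentile, with limma fitted over all 14066 genes and Benjamini-Hochberg adjusted p values, and differences are Rap1 -/- minus wild type.

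None of the 9 members passed the test between genotypes, as was true of nearly all genes, of which 2 of 14066 passed (0.0142%). None of the 10 probes passed over all probes either, of which 0.00644% did. At an unadjusted p under 0.05, 0 of the 9 members stood out, beside 6.36% of all genes. In no member did the 4 Rap1 -/- livers lie wholly above or below the 4 wild-type livers, which 4.3% of all genes did. The median log2 difference was 0.03 over the 5 immediate early members and -0.15 over the 4 heat shock members, and 0.02 over all genes. In whole liver, fewer cells of a type and less RNA per cell cannot be told apart.

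The AP-1 subunits came first. Fos was near the limit of detection, with intensities of 10.4, 23.7, 25.5 and 21.7 in Rap1 -/- livers and 21.1, 29.0, 7.38 and 17.2 in wild-type livers. It was well above background on 3 of 4 arrays of each genotype, and the groups overlapped fully. The log2 difference was 0.03 (SE 0.45, 95% CI -1.002 to 1.05, adjusted p = 0.998), an interval that leaves room for a doubling in either direction.

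Jun read 1166, 2666, 1922 and 2179 in Rap1 -/- livers and 1058, 2765, 1055 and 1564 in wild-type livers. The highest and the lowest of the 8 values were both wild type. The log2 difference was 0.18 (SE 0.35, 95% CI -0.61 to 0.97, adjusted p = 0.950). Junb was dimmer, at 33.2, 16.3, 34.2 and 35.3 in Rap1 -/- livers and 33.9, 26.1, 28.5 and 29.5 in wild-type livers. Relative to the array's 75th percentile, Rap1 -/- replicate 2 was the lowest of the 8. The log2 difference was -0.22 (SE 0.25, 95% CI -0.80 to 0.35, adjusted p = 0.899), and 0.046 without that mouse.

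Egr1 was the most variable immediate early gene between mice. Its intensities were 862, 322, 1547 and 1374 in Rap1 -/- livers and 1040, 1258, 467 and 368 in wild-type livers, a 4.80-fold range. High and low livers occurred in both genotypes. The log2 means were 1.98 ± 1.03 in Rap1 -/- and 1.81 ± 0.95 in wild-type livers (SD, n = 4 each), which differed by 0.17 (SE 0.58, 95% CI -1.15 to 1.497, adjusted p = 0.983). Ier2 was the steadiest, at 128, 110, 152 and 163 in Rap1 -/- livers and 121, 143, 135 and 128 in wild-type livers. Its log2 difference was -0.12 (SE 0.14, 95% CI -0.43 to 0.19, adjusted p = 0.899).

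**Figure D1:**
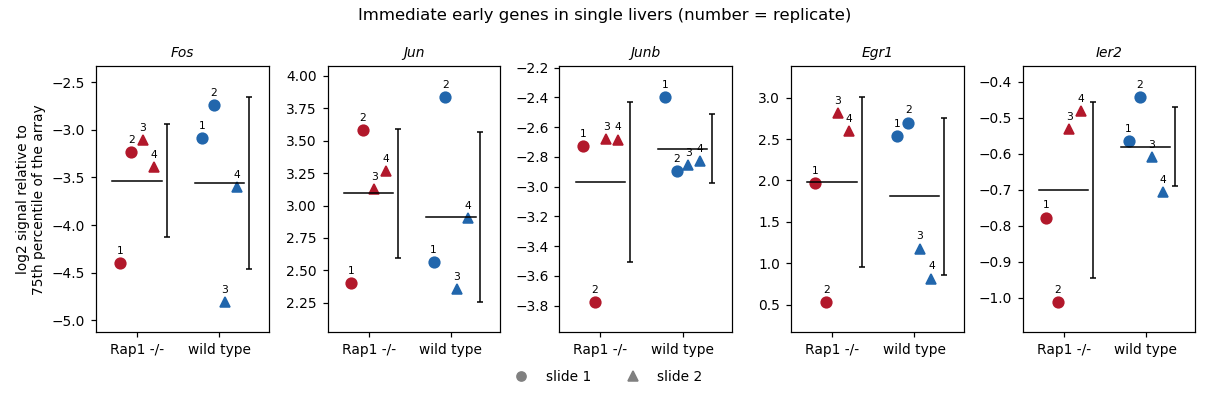
Log2 signal relative to the array's 75th percentile (vertical axis) of the 5 immediate early genes in single livers, Rap1 -/- left of wild type, numbered by replicate, with circles for slide 1 and triangles for slide 2. Horizontal bars are means and whiskers ± 1 SD (n = 4), and the genotypes overlap in all 5 genes, while Egr1 spans a 4.80-fold range of intensity.

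Among the heat shock genes, the HSP70 gene Hspa1a was dim. It read 10.6, 33.0, 6.90 and 12.5 in Rap1 -/- livers and 2.61, 26.6, 13.1 and 46.4 in wild-type livers. It was well above background on 1 of 4 Rap1 -/- arrays (replicate 2) and 3 of 4 wild-type arrays (all but replicate 1), so the other readings have no measured order among themselves. The log2 difference was -0.30 (SE 0.81, 95% CI -2.14 to 1.55, adjusted p = 0.972).

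Dnajb1, the HSP40 partner of HSP70, read 2560, 3835, 1847 and 3191 in Rap1 -/- livers and 1683, 3065, 2734 and 4825 in wild-type livers. The genotypes overlapped, with a log2 difference of -0.23 (SE 0.30, 95% CI -0.91 to 0.44, adjusted p = 0.912). Hsph1 was read by a pair of probes. The probe used for the gene, A_55_P2176963, gave 1235, 2146, 991 and 2026 in Rap1 -/- livers and 626, 1551, 1361 and 3015 in wild-type livers. The other, A_55_P2003513, gave 546, 886, 445 and 1057 in Rap1 -/- livers and 297, 710, 765 and 1401 in wild-type livers. Both probes were lowest in wild-type replicate 1 and highest in wild-type replicate 4. Their log2 differences were -0.07 (SE 0.42, adjusted p = 0.991 over genes) and -0.17 (adjusted p = 0.961 over probes).

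Hspb1 read 3328, 3698, 3595 and 3738 in Rap1 -/- livers and 2482, 2288, 2567 and 4241 in wild-type livers. The 4 Rap1 -/- livers lay close together, above 3 wild-type livers and below the other. The log2 means were 4.01 ± 0.06 in Rap1 -/- and 3.83 ± 0.35 in wild-type livers (SD, n = 4 each), a difference of 0.18 (SE 0.17, 95% CI -0.20 to 0.56, adjusted p = 0.882).

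**Figure D2:**
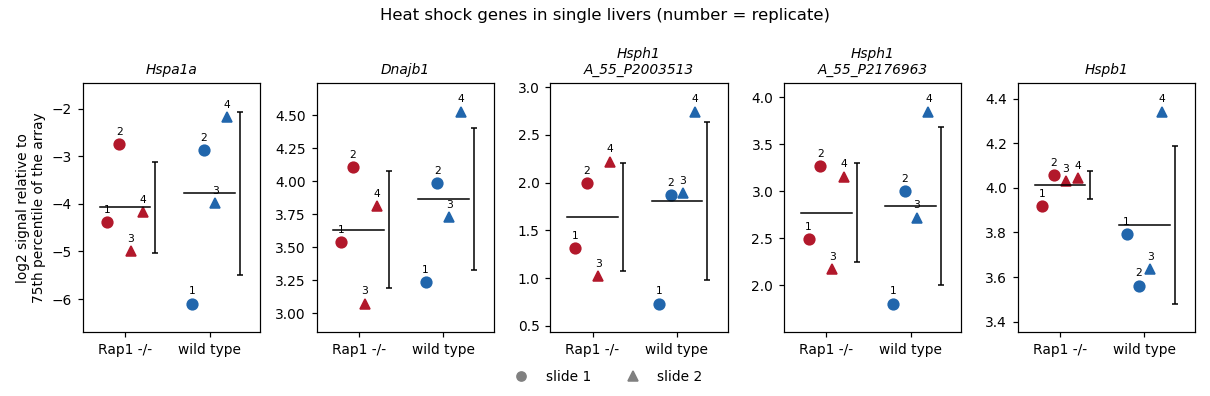
Log2 signal relative to the array's 75th percentile (vertical axis) of the heat shock probes in single livers, Rap1 -/- left of wild type, numbered by replicate, with circles for slide 1 and triangles for slide 2. Horizontal bars are means and whiskers ± 1 SD (n = 4), and wild-type replicate 1 is lowest for both Hsph1 probes, while 4 of the 8 Hspa1a readings are not well above background.

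The mice were then compared within each slide. For Egr1 the genotype difference ran in opposite directions on the 2 slides. On slide 1 both Rap1 -/- livers (862 and 322) lay below both wild-type livers (1040 and 1258), with a log2 difference of -1.37. On slide 2 both Rap1 -/- livers (1547 and 1374) lay above both wild-type livers (467 and 368), with a log2 difference of 1.71. Neither passed alone (adjusted p = 0.962 on slide 1 and 0.999 on slide 2, where 0% and 0.00711% of genes passed). The change of the genotype difference between slides, slide 2 minus slide 1, was 3.08 (SE 0.61, 95% CI 1.63 to 4.52) and did not pass over all genes (unadjusted p = 0.00164, adjusted p = 0.999). No gene passed that test (0%), and 3.36% had an unadjusted p under 0.05. How many of all genes turn between slides in this way, without overlap on either slide, was not counted. With the median of each array in place of its 75th percentile, Egr1 passed (3.32, adjusted p = 0.00316), as 1 of 6 genes that did.

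The other immediate early members had smaller values of the same sign. The change of the genotype difference between slides was 1.86 for Fos (SE 0.69, unadjusted p = 0.0330), 0.77 for Jun, 0.76 for Junb and 0.54 for Ier2 (SE 0.21, unadjusted p = 0.0358), each with an adjusted p of 0.999. With normexp background correction and quantile normalization it was 0.44 for Fos and 0.22 for Junb, both dim, and 0.80 for Jun, 0.38 for Ier2 and 2.72 for Egr1. Leaving out 1 mouse at a time gave 1.25 to 2.46 for Fos, 0.14 to 1.41 for Jun, 0.24 to 1.29 for Junb and 0.43 to 0.66 for Ier2. In the fit over all mice it was above 0 in 5 of 5 immediate early members, with a median of 0.77, where 6367 of all 14066 genes were above 0 with a median of -0.03. For the 4 heat shock members it was below 0 in 4 of 4, with a median of -0.998. The values were -2.43 for Hspa1a, -0.90 for Dnajb1, -1.10 for Hsph1 and -0.26 for Hspb1, and none had an unadjusted p under 0.05. With normexp and quantile normalization Hspa1a was at -0.49. Leaving out 1 mouse at a time gave -4.04 to -0.81 for Hspa1a, -1.30 to -0.50 for Dnajb1 and -1.69 to -0.50 for Hsph1, and the Hspb1 value was 0.092 without wild-type replicate 4.

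**Figure D3:**
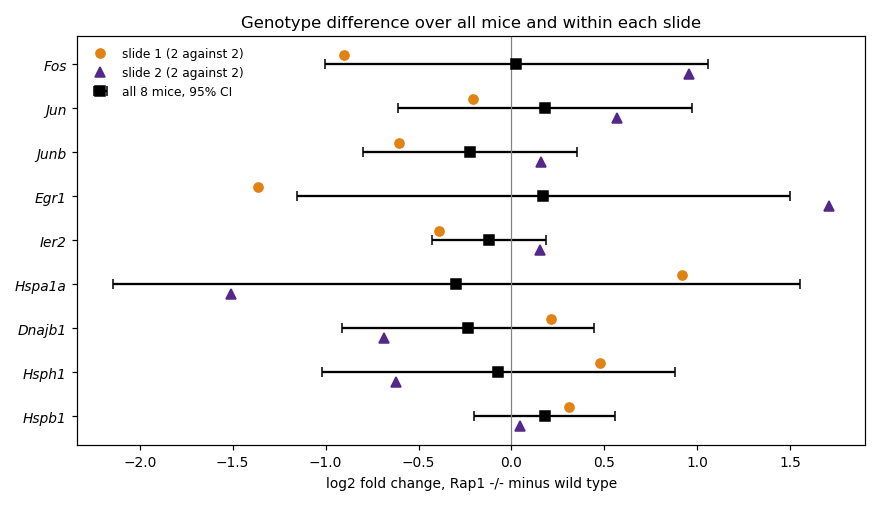
Log2 difference, Rap1 -/- minus wild type (horizontal axis), for 9 genes over all 8 mice with the 95% confidence interval from limma (black squares), and within slide 1 (circles) and slide 2 (triangles), 2 against 2 mice each. All 9 intervals include 0, and for Egr1 the slides lie at -1.37 and 1.71.

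Slides were also compared as a whole. With genotype in the fit, no member and no gene (0%) differed between slide 2 and slide 1 at the adjusted threshold, and no member had an unadjusted p under 0.05, beside 6.06% of genes. The largest such differences among members were -0.36 for Fos (SE 0.47) and 0.33 for Hsph1 (SE 0.43). By direction, 4 of 4 heat shock members (median 0.19) and 2 of 5 immediate early members (median -0.08) were above 0. So were 27 of 30 other heat shock proteins and HSF1 targets (median 0.12) and 15 of 29 other immediate early genes. Of all 14066 genes, 8403 were above 0 (median 0.04).

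Neutrophil markers had slide changes of the same sign as the immediate early genes, above 0 in 3 of 4 tested genes with a median of 1.73. Their summed level, on a linear scale relative to the 75th percentile, was 3.46, 3.38, 6.89 and 3.099 in Rap1 -/- livers and 12.97, 9.79, 3.56 and 5.20 in wild-type livers. On slide 1 the log2 difference was -1.92 for S100a9 and -1.59 for S100a8, subunits of calprotectin, and -1.65 for Retnlg. On slide 2 these were 0.20, 0.18 and 0.05. Of 8 neutrophil markers on the array, 3 were above background on all 8 arrays and Ltf on none. T and NK cell markers (7 of 7 above 0, median 0.44), Kupffer cell markers (7 of 8, 0.37), red blood cell markers (5 of 5, 0.32) and sinusoidal endothelial markers (8 of 8, 0.28) had slide changes of the same sign. Medians were smaller for stellate cell and fibroblast markers (6 of 8, 0.097) and hepatocyte markers (5 of 8, 0.084). Cholangiocyte markers were at 0.0021 (3 of 6) and pancreas markers at -0.29 (0 of 5). The part of these cells in the Egr1 result was not tested.

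Livers of 1 genotype on 1 slide were next compared with each other, and Dnajb1 and Hsph1 differed in the same direction in each comparison. Each slide held a pair of mice of each genotype, so that 4 pairs could be compared, and the difference was taken as the higher minus the lower array position. The higher position was position 4 in Rap1 -/- and position 2 in wild-type pairs. It always held replicate 2 or 4, so array position and order of replicate number cannot be told apart. This way of ordering the pairs was chosen after the values were seen. Dnajb1 differed by 0.57 and 0.74 on the log2 scale in the Rap1 -/- pairs of slides 1 and 2, and by 0.75 and 0.80 in the wild-type pairs. Hsph1 differed by 0.78 and 0.98 in the Rap1 -/- pairs and by 1.19 and 1.13 in the wild-type pairs.

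In both genes the mouse in the higher position was thus higher in 4 of 4 pairs, by 1.48-fold to 1.74-fold for Dnajb1 and 1.72-fold to 2.29-fold for Hsph1. Of all genes, 13.5% were higher and 8.62% lower in 4 of 4 pairs, and 1.15% were higher by at least 0.3 in each, as Dnajb1 and Hsph1 were. The cut of 0.3 was not planned and lies below the smallest pair difference of both genes, so that share is a description only. With normexp and quantile normalization the mean over pairs was 0.69 for Dnajb1 and 0.95 for Hsph1. For Hspa1a both mice were well above background only in the wild-type pair of slide 2, which differed by 1.80. In the Rap1 -/- pair of slide 2 neither mouse was, and in both pairs of slide 1 only the mouse in the higher position was, so no size is given for these 3 pairs. Hspb1 did not share the pattern, with 0.14 and 0.01 in the Rap1 -/- pairs and -0.23 and 0.71 in the wild-type pairs.

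Of the immediate early members, Jun was also higher in the higher position in 4 of 4 pairs, by 1.18 and 0.13 in Rap1 -/- and 1.27 and 0.55 in wild-type pairs. Egr1 was not, with -1.43 and -0.22 in Rap1 -/- and 0.16 and -0.36 in wild-type pairs. Fos was higher in 3 of 4 pairs, and 37.7% of all genes were higher in at least 3. The 75th percentile of intensity was also higher in the higher position in 4 of 4 pairs, at 220, 222, 220 and 227 on the Rap1 -/- arrays and 179, 194, 206 and 209 on the wild-type arrays, and each Rap1 -/- array exceeded each wild-type array. RNA integrity was given only as a range over all samples. The part of signal strength, RNA quality and array position in these differences was not tested.

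**Figure D4:**
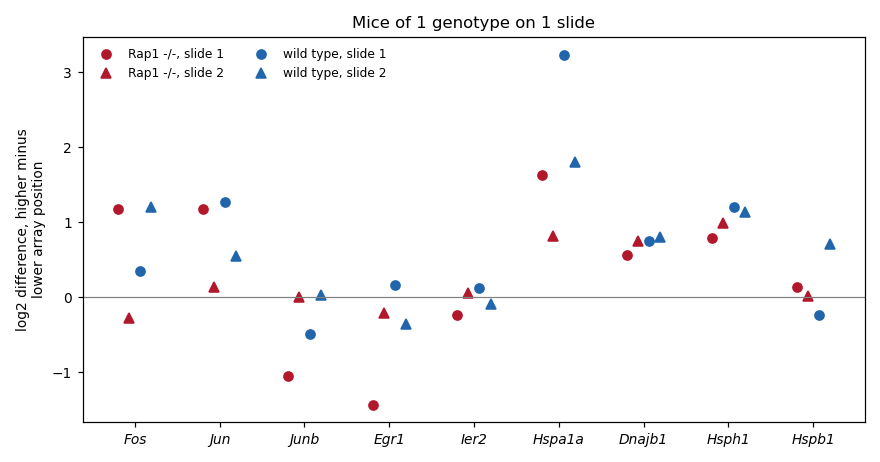
Log2 difference between the 2 mice of 1 genotype on 1 slide, higher minus lower array position (vertical axis), for 9 genes, with red for Rap1 -/- and blue for wild-type pairs, circles for slide 1 and triangles for slide 2. Jun, Dnajb1 and Hsph1 lie above 0 in 4 of 4 pairs, Dnajb1 between 0.57 and 0.80, and of the Hspa1a points only that of the wild-type pair of slide 2 (1.80) has both mice above background.

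Other genes of both programmes, taken from lists named by function, were read in the same way. Of 30 further heat shock proteins and HSF1 targets, 10 were higher in the higher position in 4 of 4 pairs and 1, Fkbp4, was lower, beside 13.5% higher and 8.62% lower of all genes. The 10 were the co-chaperones Bag1, Bag3, Dnaja1, Dnajb2, Dnajb4, Chordc1, Cacybp and Stip1, the HSP70 relative Hspa4 and the collagen prolyl hydroxylase P4ha1. Dnaja1, an HSP40, differed by 0.34 and 0.99 in Rap1 -/- and 0.70 and 0.26 in wild-type pairs, and Bag3, an HSP70 nucleotide exchange factor, by 0.69 and 0.22 in Rap1 -/- and 0.65 and 0.61 in wild-type pairs. Others differed little in some pairs, such as Bag1 (0.04 and 0.19 in Rap1 -/- and 0.25 and 0.0016 in wild-type pairs) and Dnajb2 (0.20 and 0.015 in Rap1 -/- and 0.30 and 0.030 in wild-type pairs). The constitutive HSP70, Hspa8, was not among them (-0.09 and 0.22 in Rap1 -/- and 0.37 and -0.11 in wild-type pairs). Of 29 further immediate early genes tested, 7 were higher in 4 of 4 pairs (Ccn2, Dusp1, Fosl2, Klf2, Klf4, Nr4a1 and Nr4a2) and 1, Myc, was lower. Dusp1, a phosphatase of MAP kinases, differed by 1.20 and 0.91 in Rap1 -/- and 0.46 and 1.26 in wild-type pairs. None of 12 clock genes was higher or lower in 4 of 4, but mice of a pair could differ widely in them, in both directions. Dbp differed by -2.61 and 0.76 in Rap1 -/- and 0.60 and -1.34 in wild-type pairs. Per1 differed by -1.16 and 2.56 in Rap1 -/- and 1.40 and -0.45 in wild-type pairs. Per2, Per3, Cry2, Nr1d2, Tef, Hlf and Ciart had the same signs as Dbp and Per1 in the 4 pairs. Arntl and Clock had the opposite sign in each pair, and Nr1d1 followed neither. The part of time of day in the pair differences was not tested.

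The pairs of members were then correlated over the 8 livers, 36 pairs in all, with two-sided exact permutation tests. Hspa1a, Dnajb1 and Hsph1 were high in the same livers, although 4 of the 8 Hspa1a readings were not well above background. Pearson's r was 0.96 between Dnajb1 and Hsph1 (Spearman's rho 0.95), 0.93 between Hspa1a and Hsph1 (rho 0.93) and 0.93 between Hspa1a and Dnajb1 (rho 0.95). The exact permutation p of r was 0.000546, 0.00136 and 0.00154 in that order, and all 3 had an adjusted p of 0.0185. These 3 pairs were the only ones of 36 that passed, and 3 pairs passed under each of the 4 other normalizations of the same arrays. The 4 Hspa1a readings near background have no measured order among themselves, so r, rho and p of the Hspa1a pairs are uncertain. Only the pair of Dnajb1 and Hsph1 had both genes well above background on all 8 arrays. How often pairs of other genes reach such r was not computed. Without the pair of mice farthest from the median, r was 0.95, 0.80 and 0.92. After the mean of each genotype on each slide was subtracted, it was 0.997, 0.93 and 0.91. That step leaves only the differences within the 4 pairs of mice, so it repeats the comparison of pairs above. By the same measure Jun had 0.95 with Hspa1a, 0.85 with Hsph1 and 0.82 with Dnajb1, and Fos had 0.67 to 0.69 with them. Junb, Egr1 and Ier2 were below 0 with each of these 3 genes. Without that step, over the 8 livers, r with Hspa1a, Hsph1 and Dnajb1 was 0.49, 0.41 and 0.34 for Jun. For Fos it was 0.012, -0.018 and -0.025, and none of these pairs passed. Within slide 1, of 4 mice, r of the 3 heat shock pairs that passed was 0.99, 0.99 and 0.98, and within slide 2 it was 0.98, 0.93 and 0.97.

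Hspb1 was less closely tied to the other heat shock genes, with r between 0.29 and 0.48. Among the 10 pairs of immediate early genes the median r was 0.34 and none passed. The pairs with the highest r included Egr1 with Ier2 (r = 0.80, rho = 0.86, adjusted p = 0.107 by exact permutation) and Fos with Jun (r = 0.77, rho = 0.69, adjusted p = 0.145 by exact permutation). Without the pair of mice farthest from the median these were 0.57 and 0.46, so the relation of Fos and Jun weakened without Rap1 -/- replicate 1 and wild-type replicate 3. Junb had r = 0.68 with Egr1 (rho = 0.52, adjusted p = 0.128 by exact permutation), r = 0.75 with Ier2 (rho = 0.31, adjusted p = 0.303 by exact permutation) and r = -0.51 with Jun. Without Rap1 -/- replicate 2 and wild-type replicate 1, r was 0.45 for Junb with Egr1 and -0.05 for Junb with Ier2, so the relation of Junb with Ier2 rests on those livers. Between immediate early and heat shock genes the median of 20 pairs was -0.32, and 6 were above 0. The lowest was -0.67 between Egr1 and Dnajb1 (rho = -0.60, adjusted p = 0.303 by exact permutation).

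**Figure D5:**
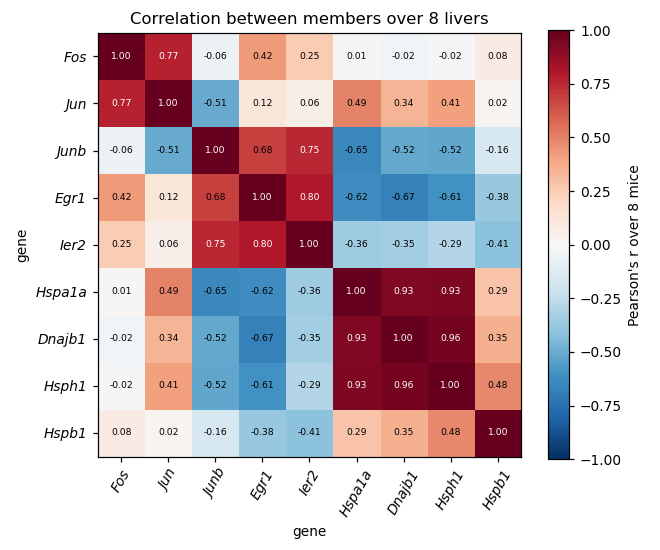
Pearson's r between the log2 signals of each pair of genes over 8 livers, on a colour scale from -1 (blue) to 1 (red). The block of Hspa1a, Dnajb1 and Hsph1 has r between 0.93 and 0.96, and the 20 pairs of an immediate early with a heat shock gene have a median of -0.32.

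The mean of the centred log2 values of each group placed the livers in different orders. For the 4 heat shock members it was -0.25, 0.53, -0.57 and 0.07 in Rap1 -/- livers and -0.95, 0.28, -0.11 and 1.00 in wild-type livers, highest in wild-type replicate 4 and lowest in wild-type replicate 1. Hspa1a, with the largest SD of the 4 (1.39), moves this mean most. It was well above background on 1 of 4 Rap1 -/- and 3 of 4 wild-type arrays. The heat shock order, and the genes closest to the heat shock mean, are uncertain to that extent. For the 5 immediate early members it was -0.28, -0.35, 0.35 and 0.29 in Rap1 -/- livers and 0.24, 0.52, -0.52 and -0.26 in wild-type livers, highest in wild-type replicate 2 and lowest in wild-type replicate 3. Wild-type replicate 4 also had the most probes above background (65.3%) and the highest median intensity (32.1, against 20.4 to 24.4 on the other arrays). Among 14057 other genes, those closest to the immediate early mean over 8 mice were Il16 (r = 0.96), Ets1 (0.95), Dse (0.93), Hdgfl3 (0.92) and Soga1 (0.91), and 5 genes had r above 0.9. Closest to the heat shock mean were Lyn (0.97), G2e3 (0.96), Zfp189 (0.95), Zw10 (0.95) and Ppp2r5b (0.95), and 49 genes had r above 0.9. These correlations were picked as the highest of many and are descriptions.

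Between mice of 1 genotype, 8 of the 9 members varied more than the median gene. The pooled SD within genotype had a median of 0.21 on the log2 scale over all genes. It was 1.39 for Hspa1a (percentile 99.8 of all genes), 0.99 for Egr1 (99.1), 0.76 for Fos (97.5), 0.70 for Hsph1 (96.7), 0.58 for Jun (94.0), 0.49 for Dnajb1 (90.6), 0.41 for Junb (85.7), 0.25 for Hspb1 (61.6) and 0.19 for Ier2 (42.6). Fos and Hspa1a were read close to background. Compared with genes of similar level (10 equal bins), Egr1, Hsph1, Hspa1a, Jun and Dnajb1 were at percentiles 96.9 to 99.9, Fos was at 86.1, Hspb1 at 81.2, Junb at 41.1 and Ier2 at 34.3.

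No gene of the wider list of either programme passed between genotypes. Of 29 further immediate early genes tested, 13 were above 0 with a median log2 difference of -0.01, none passed, and 1 was higher and 1 lower at an unadjusted p under 0.05. The nuclear receptor gene Nr4a2 had the smallest p (log2 difference -0.94, SE 0.34, adjusted p = 0.773), and values of the others with the smallest p were 0.56 for the growth regulator Myc, 0.70 for the matrix protein gene Ccn2 and -0.54 for the stress gene Gadd45b. Of 30 further heat shock genes, 17 were above 0 with a median of 0.01 and none passed. The smallest p values belonged to Tcp1 (0.23), a subunit of the chaperonin CCT, the HSP90 co-chaperone Fkbp4 (0.23), the ribosome-associated Dnajc2 (-0.30) and the HSP110 relative Hspa4l (0.26).

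Upstream regulators were tested too, and 0 of 15 passed, with a median of -0.03. Creb1, the cyclic AMP response factor, was at -0.33, Mapk8, the JNK1 kinase gene, at -0.43, the serum response factor partner Mrtfa at -0.17, and Hsbp1, an HSF1-binding protein gene, at 0.16. Hsf1 itself was at -0.05 (SE 0.18). Clock genes, which cycle with the time of day, were 3 of 12 above 0 with a median of -0.19 and none passed. Dbp (-0.42, SE 0.56) and Per1 (-0.36, SE 0.56) had wide errors, as did Arntl (0.54, SE 0.88).

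The slide pattern of the immediate early members was also seen in the wider list by count. The change of the genotype difference between slides was above 0 in 24 of 29 further immediate early genes, with a median of 0.55, and above 0 in 8 of 30 further heat shock genes, with a median of -0.19, beside a median of -0.03 over all genes. None passed, and 2 of the 29 and 0 of the 30 had an unadjusted p under 0.05, beside 3.36% of all genes.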

How the data were processed

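Total RNA of 8 livers (4 Rap1 -/-, 4 wild type) was labelled with Cy3 and read on single-colour Agilent arrays. Per the file headers, the deposited spot values are intensity on a linear scale from Agilent Feature Extraction 10.7.3.1, background-subtracted by the authors and not normalized between arrays (another release stands in the study's methods). The authors also deposited a log2 table, for which the processing notes name limma. Normexp (offset 50) with quantile normalization differed from it by a median of 0.00167. The files lack a mean signal, so normexp used the median signal in its place.

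Outlier spots were left out, repeated spots averaged, and each array's 75th percentile of log2 intensity subtracted. Probes well above background on at least 4 of 8 arrays were tested (31069 probes). A gene was its tested probe with the highest mean (14066 genes). Probes were named through RefSeq accessions of GRCm38.p6 (26056 of 55681 probes). The arrays are annotated on mm9, so no coordinates of genes or probes are given, and promoters carry those of GRCm38.p6. limma 3.58.1 (lmFit, eBayes) in R 4.3.3 was used, with adjusted p under 0.05 as threshold. For genotype no covariate was used. Slide and genotype by slide were fitted as terms. The procedure was tested on simulated data. No spot was saturated, and the number of arrays limits the precision. Labels call the mice biological replicates and say no more on their origin.

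The members and lists were chosen with earlier results of these data known. Named genes were all members, up to 4 genes per list with the smallest genotype p, and the 5 genes most like each group. Hsf1, Ltf and the genes named in the comparison of mouse pairs, were chosen after their values were seen. Alternatives covered normalization, filters, probe choice, variance model, outlier spots, blocks, single slides and single mice.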

Additional observations from a re-analysis of the deposited data

Results flagged for a closer look

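Junb stood out in 1 liver of each genotype. In Rap1 -/- replicate 2 its log2 signal, set against the 75th percentile of that array, was -3.77, far from the nearest of the other Rap1 -/- livers at -2.73 (gap over range 0.958). In wild-type replicate 1 it was at -2.40, with the nearest other wild-type liver at -2.83 (gap over range 0.865). Both ratios exceeded Dixon's 95% critical value for 4 samples. Of 20 groups examined 2 exceeded it, and chance exceeds it in about 1 in 20.

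Fos, Egr1 and Ier2 were flagged for a genotype difference that turned between slides. In each, both Rap1 -/- livers lay below both wild-type livers on slide 1 and above both on slide 2. The share of all genes with such a turn was not computed. In limma the change also had an unadjusted p under 0.05 for each, as it did for 3.36% of all genes. Slide 2 minus slide 1, the log2 difference changed by 3.08 for Egr1. It changed by 1.86 for Fos, which was 0.44 with normexp and 0.49 in the authors' value table, and by 0.54 for Ier2. None of the 3 passed over all genes in limma (adjusted p = 0.999 each).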

How the results depend on the processing

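No member passed between genotypes or between slides under any alternative run. For genotype by slide, 1 member (Egr1) passed with the median of each array in place of its 75th percentile, and none under the other alternatives, among which leaving out 1 mouse gave 2.36 to 3.79 for Egr1. That scaling took the all-gene median of the genotype by slide change to 0.21, from -0.03, and moved that of the genotype difference by 0.16. Relative to the second shift the signs of Ier2 (0.040) and Hsph1 (0.087), which it turned, are not informative.

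Within slide 1 alone the sign turned for Fos (-0.90), Jun (-0.21), Egr1 (-1.37), Hspa1a (0.92), Dnajb1 (0.22) and Hsph1 (0.48), and within slide 2 alone for Junb (0.16) and Ier2 (0.15). Leaving out 1 mouse at a time gave ranges of -0.39 to 0.32 for Fos, -0.0052 to 0.49 for Jun, -0.32 to 0.046 for Junb, -0.16 to 0.65 for Egr1, -1.07 to 0.24 for Hspa1a and -0.42 to 0.26 for Hsph1, so these signs rest on single mice. The genotype by slide change of Hspb1 ranged from -0.61 to 0.092, an alternative chosen after seeing the data, as were those for Egr1 by slide and for array positions. The cause of these turns was not tested.

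The number of all genes that passed between genotypes was 2. It was 1 with quantile normalization, no filter on dim probes, probes above background on all 8 arrays, slide as a block, slide 2 alone and each mouse left out in turn (1 to 1), 0 with normexp, the authors' value table and slide 1 alone, and 3 with the mean of a gene's probes and with a trended, robust variance. Replicate numbers did not pair the mice (correlations of same-numbered mice -0.18 to 0.10), and with the replicate number as a block 0 genes and 0 members passed.

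The median within-genotype SD of the members was 0.58, and 0.28 with normexp or the authors' table. Fos and Hspa1a were too dim for the filter on all 8 arrays and have no value there.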
